A study of Homo sapiens with 6 samples.

Results

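RAB small GTPase transcripts were followed in Saos-2, a widely used line grown from a human osteosarcoma, after treatment with the plant quassinoid ailanthone (AIL) or with its solvent. The genes were taken by name, as rows of the expression table whose symbol is RAB followed by a number and at most 1 letter, so that RAB-binding proteins with longer names stayed out. Of 13439 genes in the table, 50 had such a symbol, and 44 of these had a mean of at least 1 CPM (reads per gene scaled to library depth) over the 6 libraries. The rule used names and mean levels. The libraries were 3 of cells held in 0.20 µM AIL for 24 h and 3 of cells held in dimethyl sulfoxide (DMSO) for 24 h, and the labels name no further alteration of the cells. The dose is the IC50 in the labels, which call the samples biological replicates without saying how the cultures were separated, so the p-values speak only of the spread among these 6 libraries. The stated aim of the series was to find pathways that AIL alters.

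RAB proteins are small GTPases that mark membranes and direct the traffic of vesicles between them. Exchange factors load a RAB with GTP on its membrane, where it recruits effectors such as tethers and motors, and GTPase activating proteins switch it off again. The inactive protein, which carries a lipid anchor attached with the help of a RAB escort protein, is held in the cytosol by a GDP dissociation inhibitor. Different RABs serve the path from the endoplasmic reticulum (ER) through the Golgi, the early and recycling endosomes, the late endosome and lysosome, and secretion.

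Values are deposited TMM-normalized CPM printed to 2 decimals, and the step of 1 read gave scaled depths of 35909700 to 38048100 reads in AIL libraries and 32544400 to 35834300 reads in DMSO libraries. Of 9 osteoblast lineage markers, 4 were among the listed genes. RUNX2, an osteoblast transcription factor, had 4.48 to 5.04 CPM under AIL and 4.36 to 4.95 CPM under DMSO. SPP1 and BGLAP, matrix genes of mature osteoblasts, stayed at or below 0.28 CPM in every library. Of 10 markers of other cell types 3 were listed. CDH5 and ACTA1 stayed at or below 0.12 CPM, and CD68, a macrophage marker that is also a lysosomal membrane protein, had 2.48 to 3.26 CPM under AIL and 0.73 to 0.79 CPM under DMSO. As a view on RNA quality, the 13 protein genes of the mitochondrial genome were summed. They gave 3600 to 3726 CPM under AIL and 4205 to 4374 CPM under DMSO. By the test given below, 10 of the 13 fell, beside 25.9% of all tested genes, with a median log2 difference of -0.20. The part of these shifts in the RAB results was not tested.

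Of the 44 RAB genes, 9 rose and 6 fell under AIL, and 29 did not pass the test. RAB9A, RAB30, RAB39B, RAB8A, RAB1B, RAB27B, RAB3B, RAB22A and RAB18 rose, and RAB1A, RAB5B, RAB15, RAB40C, RAB6A and RAB14 fell. The changes were small, from -0.23 for RAB1A to 0.37 for RAB9A on the log2(CPM + 1) scale. The test was limma on log2(CPM + 1) with a Benjamini-Hochberg adjusted p under 0.05 over all 11069 tested genes, and differences are AIL minus DMSO. With this rule 54.1% of all tested genes were called, 28.2% higher and 25.9% lower, so that a smaller share of the RAB genes (34.1%) was called than of the table as a whole. The median log2 difference was -0.03 over the RAB genes and 0.01 over all tested genes, and the median absolute difference was 0.07 over the RAB genes and 0.13 over all tested genes. Calls with an absolute difference of at least 0.25 were 4 of the 44, RAB9A, RAB30, RAB39B and RAB8A, beside 21.4% of all tested genes. The values of the AIL and DMSO libraries did not overlap for 19 of the 44, beside 60.1% of all tested genes. In bulk RNA, fewer cells that carry a transcript and less of it per cell cannot be told apart.

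**Figure D1:**
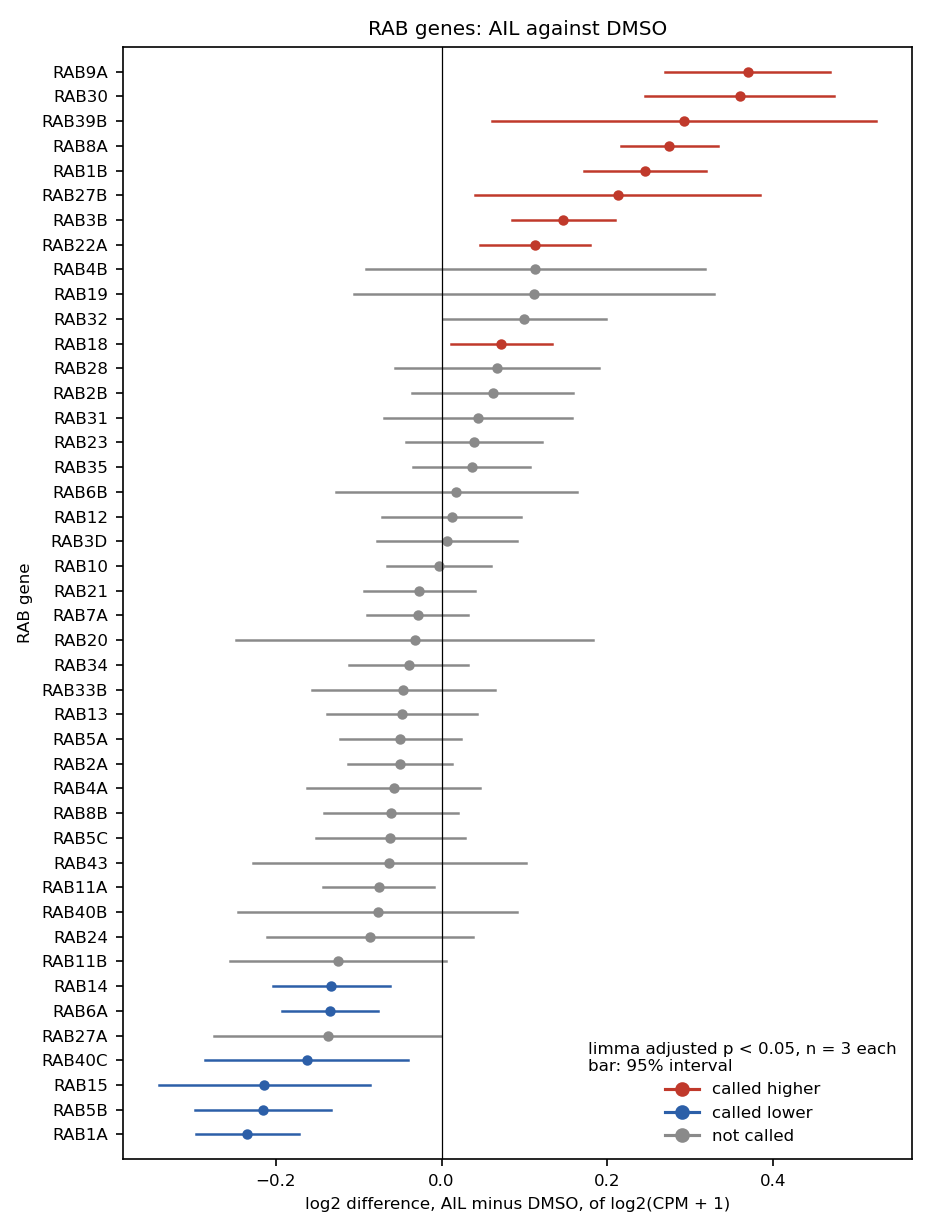
Log2 difference (AIL minus DMSO, log2(CPM + 1) scale) of the 44 RAB genes, one gene a row, ordered by size, with the 95% interval from limma (n = 3 each). RAB9A and RAB30 stand at the top with 0.37 and 0.36, RAB1A at the bottom with -0.23, and the intervals of most genes in between cross 0.

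The 50 listed RAB genes together had 2386, 2329 and 2368 CPM in AIL libraries, against 2337, 2341 and 2347 CPM in DMSO libraries. The groups overlapped. AIL replicate 2 had the lowest value of its group for 24 of the 44 genes, beside 39.0% of all tested genes. Under DMSO the lowest value fell on replicate 1 for 19, on replicate 2 for 15 and on replicate 3 for 13, ties counted in each.

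The RefSeq promoter table (GRCh38.p14, 250 bases before the start) held entries for 37 of the 44 genes. Promoters are shown for RAB9A, RAB30 and RAB1B, which rose, and RAB5B, which fell, 5′ to 3′ on the strand of the gene and up to the first annotated exon. RAB9A is at chrX:13688878-13689124 (+), RAB30 at chr11:83071924-83072147 (-), RAB1B at chr11:66268389-66268532 (+) and RAB5B at chr12:55973699-55973912 (+). Capitals mark the CCAAT box, here read as ATTGG on the other strand.
RAB9A: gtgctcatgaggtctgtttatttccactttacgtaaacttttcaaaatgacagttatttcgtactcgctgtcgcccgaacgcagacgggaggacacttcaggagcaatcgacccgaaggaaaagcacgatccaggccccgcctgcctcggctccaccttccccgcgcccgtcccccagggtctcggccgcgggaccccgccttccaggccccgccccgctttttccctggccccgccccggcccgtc
RAB30: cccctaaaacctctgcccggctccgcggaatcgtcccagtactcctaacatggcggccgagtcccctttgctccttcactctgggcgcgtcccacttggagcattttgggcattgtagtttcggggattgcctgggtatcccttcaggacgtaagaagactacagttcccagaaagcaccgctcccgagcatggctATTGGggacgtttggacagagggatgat
RAB1B: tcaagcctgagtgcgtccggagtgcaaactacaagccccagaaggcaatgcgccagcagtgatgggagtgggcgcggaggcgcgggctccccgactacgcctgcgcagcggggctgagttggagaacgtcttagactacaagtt
RAB5B: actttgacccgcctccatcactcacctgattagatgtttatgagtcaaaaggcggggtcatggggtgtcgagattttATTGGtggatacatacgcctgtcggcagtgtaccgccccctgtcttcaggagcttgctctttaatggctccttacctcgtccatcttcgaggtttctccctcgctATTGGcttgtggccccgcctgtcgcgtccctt
Of the motifs CACGTG (E-box), TGACGT (core of the cyclic AMP response element), CCAAT and the ER stress response element, searched on both strands in the 250 bases, RAB9A and RAB1B held none, and RAB30 and RAB5B held CCAAT. The CCAAT box is a piece of the ER stress response element, and CACGTG and TGACGT can overlap. A CCAAT was present in an entry of 12 of the 37 RAB genes, RAB8A and RAB40C among them, and in 17 of their 57 entries (29.8%), beside 32.0% of 35116 promoters. CACGTG was in 5 of the 57 entries (8.77%, beside 6.34% of all), TGACGT in 1 (1.75%, beside 7.10%), and the ER stress response element in 0 (beside 0.0740%). A match is a description of letters, and the shares of the RAB entries were close to those of all promoters for CCAAT and CACGTG. Genes that rose and genes that fell both held CCAAT.

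Levels can be compared between genes only per length. With CPM divided by the length of the principal coding transcript in GENCODE 29, RAB1B had the highest level, 78.3 ± 3.51 CPM per kb under AIL and 66.0 ± 2.499 under DMSO (SD, n = 3). RAB34, which acts at the Golgi, the lysosome and the cilium, had 63.9 ± 2.80 CPM per kb under AIL and 65.7 ± 1.82 under DMSO, so that the pair differed beyond its spread under AIL but not under DMSO. RAB10 had 47.1 CPM per kb under AIL and 47.2 under DMSO, RAB1A 39.3 under AIL and 46.3 under DMSO, and RAB7A 43.6 under AIL and 44.5 under DMSO. RAB5C had 42.5 CPM per kb under AIL and 44.4 under DMSO, and RAB8A 51.1 under AIL and 42.2 under DMSO. In the DMSO order RAB10 and RAB1A lay within their spread of each other, as did RAB7A, RAB5C and RAB8A through the SD of 2.403 of RAB5C. Lowest were RAB27B, with 0.758 CPM per kb under AIL and 0.636 under DMSO, and RAB39B, with 0.419 under AIL and 0.291 under DMSO. The order depends on the transcript taken. With the median length of a gene's coding transcripts RAB7A came first and RAB1B seventh, RAB27B moved to rank 29 of 44 and RAB39B stayed lowest, and the annotation the authors used is not given in the sources used here.

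On the path between the ER and the Golgi, 3 of 11 RAB genes rose and 2 fell (45.5% called, beside 54.1% of all tested genes), with a median log2 difference of 0.02. The pair that drives transport from the ER to the Golgi split. RAB1B had 160.6, 161.8 and 149.1 CPM in AIL libraries, against 133.3, 136.9 and 127.03 CPM in DMSO libraries. RAB1A had 95.01, 94.99 and 98.7 CPM in AIL libraries, against 111.7, 112.6 and 115.8 CPM in DMSO libraries. Every AIL library was above every DMSO library for RAB1B and below every one for RAB1A. The log2 difference was 0.25 for RAB1B (SE 0.035, limma adjusted p = 1.46e-05) and -0.23 for RAB1A (SE 0.0296, limma adjusted p = 3.88e-06). Both kept their call in all 14 alternative settings. Reads of RAB1B are less certain, since 34.0% of its 50-base words in GENCODE 29 also occur in other genes, mostly antisense transcripts at its own locus. The share was 4.37% for RAB1A, with words taken from coding transcripts only. Over all annotated exons, RAB1A shares 22.9% of its bases with CEP68 on the opposite strand. CEP68 had 14.1 CPM under AIL and 13.4 CPM under DMSO and did not pass.

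RAB30, a Golgi RAB, had 16.2, 15.5 and 16.6 CPM in AIL libraries, against 12.4, 12.4 and 12.1 CPM in DMSO libraries. It rose by 30.7%, the groups did not overlap, and the log2 difference was 0.36 (SE 0.0541, limma adjusted p = 2.56e-05). RAB6A, which carries cargo back through the Golgi, fell by 8.96%, with 114.5, 114.4 and 116.9 CPM under AIL against 127.6, 127.7 and 124.4 CPM under DMSO (limma adjusted p = 5.29e-04). Of its 50-base words 27.7% recur in other genes, chiefly the copies RAB6C and RAB6D. RAB18, which acts at the ER and on lipid droplets, had 97.6, 95.9 and 98.8 CPM under AIL, against 91.6, 92.5 and 93.8 CPM under DMSO. Its difference of 0.07 was just past the threshold (limma adjusted p = 0.0435). The RAB18 call was lost without AIL replicate 1 (0.103) or 3 (0.0784), without DMSO replicate 1 (0.143), 2 (0.110) or 3 (0.0545), under median-of-ratios scaling (0.0801) and in a fit that had no intensity trend (0.0829). The other 6, RAB2A, RAB2B, RAB6B, RAB19, RAB33B and RAB43, did not pass, with differences of -0.06 to 0.11, although RAB2B was higher and RAB33B lower in every AIL library than in any DMSO library.

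In the late endosome and lysosome group, 2 of 8 genes rose and 0 fell (25% called, beside 54.1% of all tested genes). RAB9A, which returns mannose 6-phosphate receptors from late endosomes to the Golgi, had a log2 difference of 0.37 (SE 0.0471, limma adjusted p = 4.27e-06), the largest of the 44 at a pseudocount of 1. It had 30.4, 28.9 and 28.3 CPM in AIL libraries, against 22.3, 21.5 and 23.3 CPM in DMSO libraries, a rise of 30.5% with no overlap. None of its 50-base words occur in another annotated gene. RAB7A, which drives fusion of late endosomes with lysosomes, had 97.7, 96.4 and 99.2 CPM under AIL and 98.2, 100.5 and 100.6 CPM under DMSO. The groups overlapped, and the difference of -0.03 had a 95% interval of -0.09 to 0.03. RAB39B, mutated in X-linked intellectual disability, was near the limit of measurement with 1.52, 1.27 and 1.62 CPM under AIL against 0.92, 0.88 and 1.26 CPM under DMSO (log2 difference 0.29, SE 0.11, limma adjusted p = 0.0324). That call was lost without AIL replicate 1 (0.0842) or 3 (0.0988), without DMSO replicate 1 (0.0983) or 2 (0.119) and with quantile normalization (0.0792). The size of the RAB39B difference depended on the pseudocount, with 0.50 at 0.1, above the 0.38 of RAB9A, and 0.10 at 5. RAB32, a RAB of lysosome-related organelles and mitochondria, had 42.4, 39.5 and 42.3 CPM under AIL and 41.5, 37.02 and 37.3 CPM under DMSO and did not pass (limma adjusted p = 0.0804). It passed with the replicate number as a block (0.0301), without AIL replicate 2 (0.0440) and without DMSO replicate 1 (0.0131). The remaining members RAB12, RAB20, RAB24 and RAB34 had differences of -0.09 to 0.01 and did not pass. RAB29, a RAB of the trans-Golgi and lysosome listed under its older symbol RAB7L1 and so outside the naming rule, rose to 52.03 ± 2.01 CPM under AIL, against 41.3 ± 1.08 CPM under DMSO (SD, n = 3; log2 difference 0.33, limma adjusted p = 1.98e-06).

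Among RABs of secretory vesicles and the plasma membrane, 3 of 9 rose and 1 fell, beside 28.2 and 25.9% of all tested genes. The 1 that fell, RAB15, was listed here but is also known from endocytic recycling. RAB8A, which carries cargo from the Golgi and recycling endosomes to the plasma membrane and the cilium, had 147.2, 141.0 and 145.2 CPM in AIL libraries, against 118.8, 119.4 and 119.4 CPM in DMSO libraries. It rose by 21.2% with no overlap, and the SD was 3.17 CPM under AIL and 0.367 CPM under DMSO (log2 difference 0.27, SE 0.0276, limma adjusted p = 2.51e-07). Antisense and neighbouring transcripts share 38.2% of its 50-base words. RAB3B, a RAB of regulated exocytosis, had 139.2, 139.6 and 142.8 CPM under AIL against 129.0, 122.4 and 129.3 CPM under DMSO (log2 difference 0.15, limma adjusted p = 4.15e-04). RAB15 fell, with 10.2, 9.40 and 9.94 CPM under AIL against 11.2, 11.6 and 11.97 CPM under DMSO (log2 difference -0.21, limma adjusted p = 0.00637). Neither pair of groups overlapped.

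The RAB27 pair docks secretory granules and exosome-bearing endosomes at the plasma membrane. RAB27B had 5.52, 5.94 and 5.10 CPM under AIL against 4.39, 4.39 and 5.11 CPM under DMSO, and 1 AIL library lay just below the highest DMSO library. It passed (log2 difference 0.21, SE 0.0813, limma adjusted p = 0.0356), but not without AIL replicate 1 (0.0756) or 2 (0.145), without DMSO replicate 1 (0.113) or 2 (0.117), with quantile normalization (0.0677) or with no filter on low values (0.0519). The RAB27B difference was 0.13 at a pseudocount of 5. RAB27A had 13.3, 12 and 12.2 CPM under AIL and 12.7, 14.2 and 14.8 CPM under DMSO, and it did not pass (log2 difference -0.14, limma adjusted p = 0.0837). It passed with quantile normalization (0.0266), without AIL replicate 1 (0.0463) and without DMSO replicate 1 (0.0229). RAB10, which delivers the glucose transporter GLUT4 to the plasma membrane, had 170.1, 160.4 and 168.7 CPM under AIL and 165.6, 163.2 and 171.5 CPM under DMSO, a difference of -0.00 with a 95% interval of -0.07 to 0.06, and RAB3D, RAB8B and RAB13 had differences of -0.06 to 0.01 that did not pass.

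Of 10 RABs of the early endosome and fast recycling, 1 rose and 2 fell (30% called, beside 54.1% of all tested genes). RAB5 proteins govern fusion of early endosomes, and of the 3 genes RAB5B fell, with 45.8, 42.6 and 42.6 CPM in AIL libraries against 51.1, 51.9 and 49.5 CPM in DMSO libraries. The groups did not overlap (log2 difference -0.22, SE 0.0389, limma adjusted p = 1.57e-04). RAB5A had 65.6, 63.03 and 66.6 CPM under AIL and 65.2, 69.1 and 67.8 CPM under DMSO, and RAB5C had 83.5, 84.4 and 76.0 CPM under AIL and 84.3, 89.7 and 80.6 CPM under DMSO. Both overlapped and did not pass, with 95% intervals of -0.12 to 0.02 and -0.15 to 0.03. RAB14, which links endosomes and the Golgi, fell by 8.93%, with 75.1, 72.7 and 75.4 CPM under AIL against 79.7, 80.2 and 85.1 CPM under DMSO (limma adjusted p = 0.00282). RAB22A, a relative of RAB5 in endosomal recycling, rose by 8.23%, with 108.2, 110.8 and 114.1 CPM under AIL against 106.04, 99.98 and 101.8 CPM under DMSO (limma adjusted p = 0.00588). RAB4A, RAB4B, RAB21, RAB31 and RAB35 had differences of -0.06 to 0.11 and did not pass.

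The slow recycling RABs did not pass. RAB11A, the main RAB of the recycling endosome, had 133.7, 126.3 and 137.7 CPM under AIL and 138.9, 138.7 and 141.5 CPM under DMSO. All AIL values were below all DMSO values, the log2 difference was -0.08 (95% interval -0.14 to -0.01), and the limma adjusted p was 0.0516. With the replicate number as a block RAB11A passed (0.0157), and it also passed with median-of-ratios scaling (0.0313), with a minimum mean of 5 CPM (0.0476) and without AIL replicate 3 (0.00346). RAB11B had 12.1, 11.5 and 11.1 CPM under AIL and 12.9, 13.3 and 11.9 CPM under DMSO (limma adjusted p = 0.0972), and passed with quantile normalization (0.0256) and without DMSO replicate 3 (0.0446).

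RAB23 and RAB28, which act at the cilium, did not pass, with differences of 0.04 and 0.07. RAB40 proteins carry a SOCS box that binds a ubiquitin ligase. RAB40C fell by 11.3%, with 13.3, 14.1 and 12.6 CPM under AIL against 15.03, 15.5 and 14.5 CPM under DMSO (log2 difference -0.16, SE 0.0579, limma adjusted p = 0.0246). The RAB40C call was lost without AIL replicate 1 (0.0592) or 3 (0.0821) and without DMSO replicate 1 (0.0588) or 2 (0.0963). RAB40B did not pass (log2 difference -0.08). The 6 RAB genes under the minimum, RAB3A, RAB9B, RAB17, RAB26, RAB36 and RAB38, had means of 0.0567 to 0.398 CPM and at most 0.61 CPM in any library. Nearest the limit of 1 CPM were RAB19 with a mean of 1.06 CPM on the inner side and RAB9B with 0.398 CPM on the outer side.

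**Figure D2:**
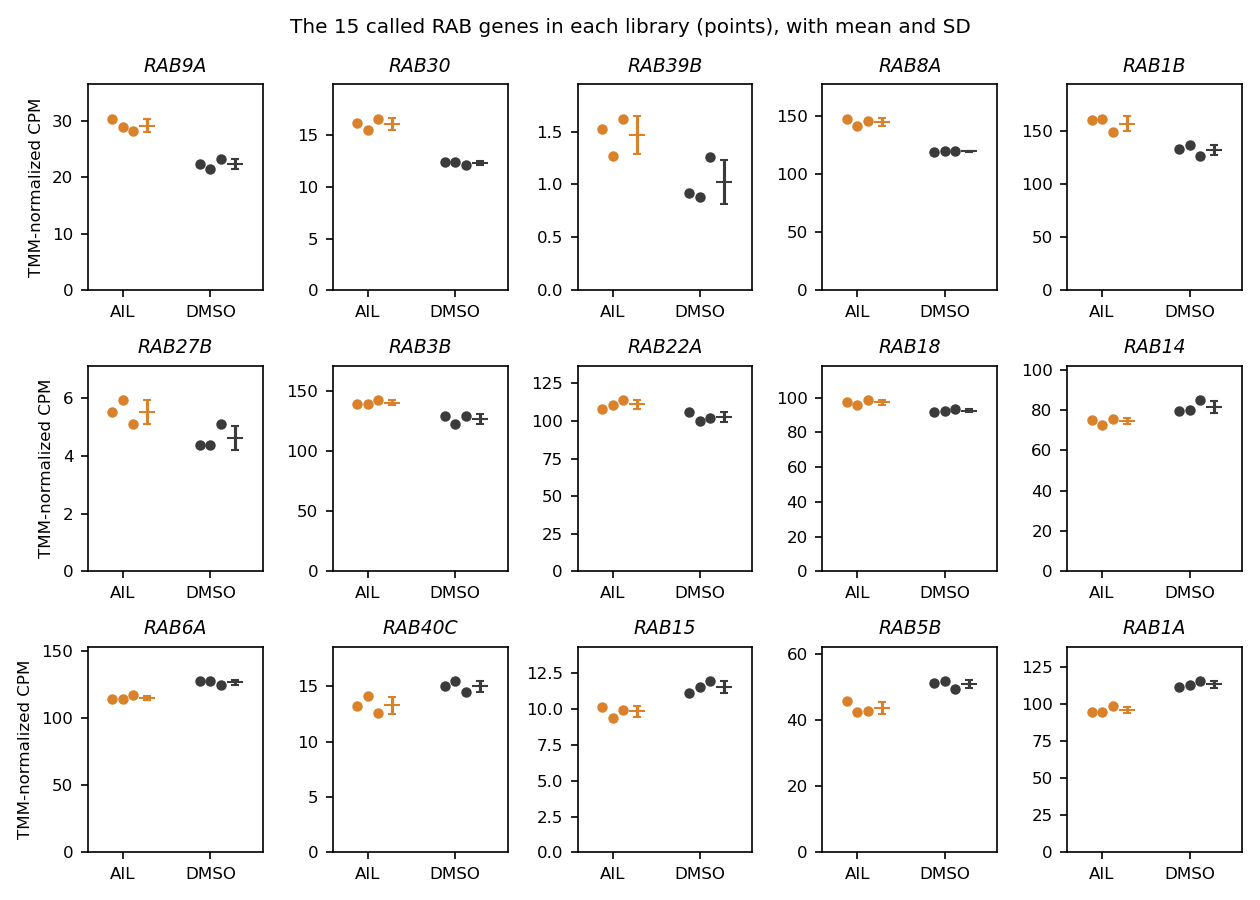
TMM-normalized CPM of the 15 called RAB genes in the 3 AIL and 3 DMSO libraries (points), with the mean and SD beside them, each panel from 0. The AIL libraries lie wholly above those of DMSO for RAB9A, RAB30, RAB8A and RAB1B and wholly below for RAB1A, RAB5B and RAB6A, while RAB27B overlaps.

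The genes of 1 RAB number share most of their sequence and function, so the pairs were also followed as ratios within each library. The ratio of CPM is not corrected for length and is read only between libraries. RAB1A over RAB1B stood at 0.592, 0.587 and 0.662 in AIL libraries, against 0.838, 0.822 and 0.911 in DMSO libraries. Their sum moved less, with 253.4 ± 4.93 CPM under AIL and 245.8 ± 3.46 CPM under DMSO (SD, n = 3). RAB8A over RAB8B stood at 3.204, 3.33 and 3.23 under AIL, against 2.58, 2.58 and 2.56 under DMSO, and RAB27A over RAB27B at 2.41, 2.02 and 2.39 under AIL, against 2.88, 3.23 and 2.89 under DMSO. RAB8B itself, with 45.9, 42.4 and 44.9 CPM under AIL and 46.1, 46.4 and 46.6 CPM under DMSO, did not pass. Of the 12 pairs in 10 subfamilies, 8 had ratios that did not overlap between the groups. Values of single genes did not overlap for 60.1% of all tested genes, and the share for other gene pairs was not computed. Each of those 8 had a two-sided exact permutation p of 0.1, the smallest that 3 against 3 allows, and 0.15 after adjustment over the 12. The change of the log2(CPM + 1) ratio was -0.48 for RAB1A over RAB1B, -0.35 for RAB27A over RAB27B and 0.34 for RAB8A over RAB8B.

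**Figure D3:**
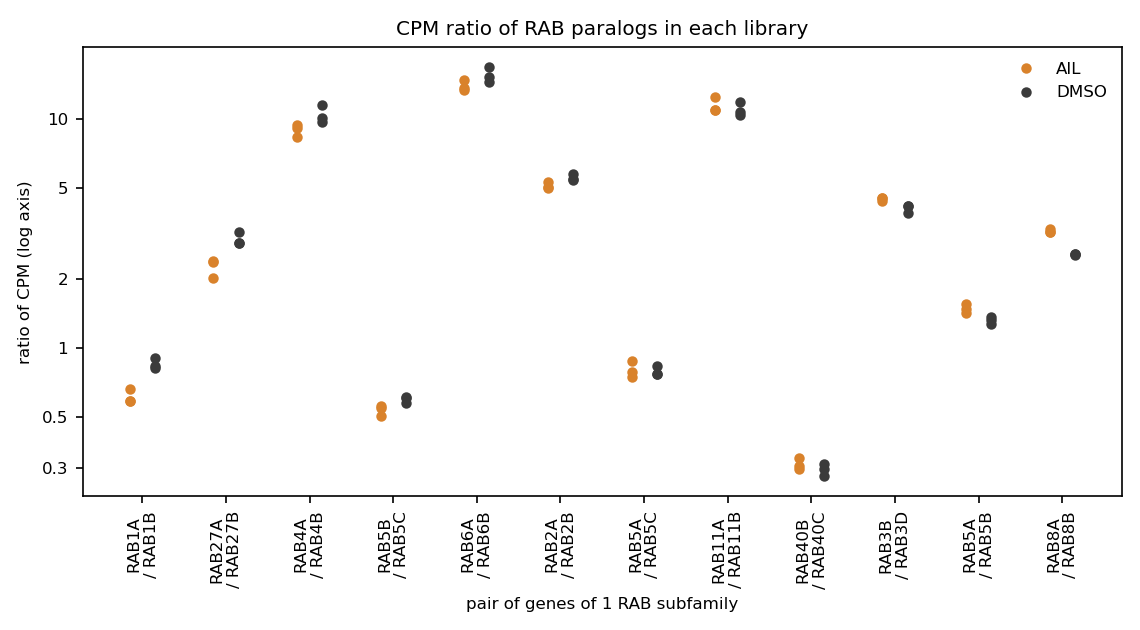
Ratio of CPM (log axis) of the 12 pairs of RAB genes that share a number, in each AIL and DMSO library. RAB1A over RAB1B lies at 0.587 to 0.662 under AIL and 0.822 to 0.911 under DMSO, and RAB8A over RAB8B at 3.204 to 3.33 under AIL and 2.56 to 2.58 under DMSO.

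The genes that load, unload or bind RABs were followed as a list of 186, of which 168 were listed and 155 tested. In it 36 rose and 42 fell (50.3%, beside 54.1% of all tested genes), with a median log2 difference of -0.00. Of 17 genes for prenylation, escort and GDP dissociation, 5 rose and 3 fell (47.1% called, beside 54.1% of all tested genes). GDI2, a GDP dissociation inhibitor, fell to 330.7 ± 8.87 CPM under AIL, against 372.2 ± 3.42 CPM under DMSO (SD, n = 3; log2 difference -0.17, limma adjusted p = 2.84e-05). CHML, a RAB escort protein gene, rose to 78.4 ± 1.30 CPM under AIL, against 69.4 ± 1.81 CPM under DMSO, and YIF1A, a Golgi membrane protein gene, rose by 19.1%. The count that rose was 3 without AIL replicate 1, DMSO replicate 2 or DMSO replicate 3. RABGGTB, the catalytic subunit of the RAB prenylating enzyme, fell by 0.11 on the log2 scale.

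Of 48 tested exchange factor genes, 9 rose and 13 fell (45.8% called, beside 54.1% of all tested genes). TRAPPC2L, a subunit of the TRAPP complexes that activate RAB1, had the largest difference of the group, with 80.9 ± 2.06 CPM under AIL against 54.7 ± 1.03 CPM under DMSO (log2 difference 0.56, limma adjusted p = 5.02e-10). SMCR8, the partner of C9orf72, rose to 30.6 ± 0.903 CPM under AIL, against 22.8 ± 1.06 CPM under DMSO, and RIN1, an exchange factor for RAB5, to 8.81 ± 1.10 CPM under AIL, against 6.52 ± 0.297 CPM under DMSO. Of 35 GTPase activating protein genes, 6 rose and 9 fell (42.9% called, beside 54.1% of all tested genes). TBC1D24 and TBC1D15 rose by 0.42 and 0.25 on the log2 scale, and TBC1D8 fell by 0.28. Among 46 effector genes, 12 rose and 17 fell, 63.0% of those tested, beside 54.1% of all tested genes. SYTL4 and EXPH5, both effectors of RAB27, fell by 0.64 and 0.40, and MICALCL, at 1.09 CPM under AIL and 1.80 CPM under DMSO, fell by 0.42, or by 0.68 at a pseudocount of 0.1 and 0.16 at 5. SYTL4 had 6.68 ± 0.0666 CPM under AIL, against 11.01 ± 0.536 CPM under DMSO (SD, n = 3; limma adjusted p = 2.24e-07). PPM1H, a phosphatase that reverses RAB phosphorylation by LRRK2, rose to 9.83 ± 1.07 CPM under AIL, against 6.23 ± 0.668 CPM under DMSO (limma adjusted p = 1.68e-05), and the kinase gene LRRK1 did not pass. Of 7 genes listed as RAB-like, RABL3, RABL5 and RAB7L1 rose and 4 did not pass (42.9% called, beside 54.1% of all tested genes). RAB7L1 is RAB29, a RAB and not a RAB-like gene, and was listed here only by its older symbol. The genes of this paragraph kept their calls in all alternative settings in which they were tested.

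**Figure D4:**
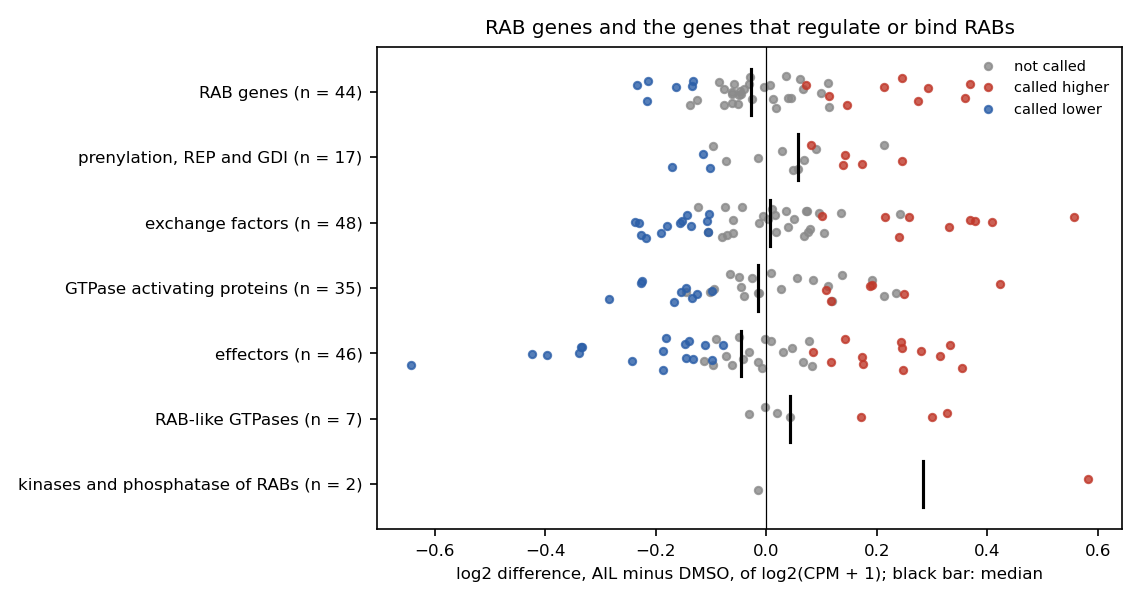
Log2 differences (AIL minus DMSO, log2(CPM + 1) scale) of the 44 RAB genes and of the tested RAB-regulating and RAB-binding genes by role, 1 point a gene with the median as a black bar. RAB genes span -0.23 to 0.37, and the effectors reach from -0.64 for SYTL4 to 0.35 for PLEKHM1.

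The same genes were also sorted by the RAB they serve, a sorting made after their values were seen. The counts by RAB therefore describe this sorting and are not a test, and another sorting would give other counts. PIK3R4, which fell, was placed under RAB5. Of 13 genes for RAB7, 8 rose and 0 fell, beside 28.2 and 25.9% of all tested genes, while RAB7A itself did not pass. They were the exchange factors MON1A and MON1B, the effectors FYCO1, PLEKHM1, VPS39 and VPS41, and the GTPase activating proteins TBC1D5 and TBC1D15. Another 5 did not pass, among them the exchange factor genes CCZ1 and CCZ1B, with log2 differences of 0.02 and 0.07. VPS41, a subunit of the HOPS tether of late endosomes, had 116.2, 115.1 and 118.4 CPM in AIL libraries, against 98.6, 97.5 and 98.5 CPM in DMSO libraries. PLEKHM1, an adaptor for lysosome fusion, had 16.6, 16.5 and 15.3 CPM under AIL against 13, 11.9 and 12.3 CPM under DMSO. The calls of MON1A and VPS39 were lost in 3 and 5 of 14 settings. MON1A lost its call with no intensity trend and without AIL replicate 2 or DMSO replicate 3, and VPS39 with quantile normalization, without AIL replicate 1 or 2 and without DMSO replicate 2 or 3, and the highest adjusted p was 0.0743 and 0.165.

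For RAB8, OPTN (optineurin, an autophagy receptor that binds RAB8) rose to 126.2, 123.5 and 120.5 CPM under AIL, against 99.8, 108.1 and 104.5 CPM under DMSO. The other 4 of its 5 genes fell, beside 25.9% of all tested genes. They were the exchange factor RAB3IP and the effectors EHBP1, EHBP1L1 and MICALL1. EHBP1L1 had 35.4, 33.6 and 32.4 CPM under AIL against 43.5, 45.2 and 40.4 CPM under DMSO. MICALL1 lost its call without AIL replicate 3 and without DMSO replicate 1 or 2 (highest adjusted p 0.122). Partners of RAB8 thus went both ways beside the rise of RAB8A.

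Of 15 genes for RAB5, 6 rose and 5 fell, beside 28.2 and 25.9% of all tested genes. RABEP1, an effector that links RAB5 to its exchange factor, fell to 122.3, 122.2 and 125.8 CPM under AIL, against 152.3, 155.1 and 160.9 CPM under DMSO. RABEP2, another effector gene, rose, with 14.95, 14.8 and 11.95 CPM under AIL against 10.97, 11.05 and 10.3 CPM under DMSO. Its log2 difference was 0.33 (limma adjusted p = 0.00102), and the call was kept in all 14 settings. PIK3R4, a subunit of the endosomal phosphoinositide kinase, fell by 0.33 on the log2 scale, and the tether gene EEA1 rose by 0.14. ZFYVE20 also rose, a call lost with median-of-ratios scaling, with quantile normalization, without AIL replicate 1 or 2 and without any 1 of the DMSO replicates (highest adjusted p 0.131). USP6NL rose and lost its call without AIL replicate 1 or 2 and without DMSO replicate 1 or 2 (highest adjusted p 0.0854). APPL2 fell and lost its call without AIL replicate 1 or 2 and without DMSO replicate 1 or 3 (highest adjusted p 0.116), and RIN2 rose and lost it without AIL replicate 1 (0.0619). Of 18 tested genes for RAB1, 1 rose (TRAPPC2L) and 5 fell, beside 28.2 and 25.9% of all tested genes. Among these USO1 and GOLGB1, tethers of vesicles at the Golgi, fell by 0.18 and 0.19, and TRAPPC10 by 0.24. TRAPPC11 and TRAPPC12 fell as well but lost the call without AIL replicate 1, and without DMSO replicate 3 (TRAPPC11) or 1 (TRAPPC12), with a highest adjusted p of 0.0778 and 0.0776.

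For RAB11, RAB11FIP2 and the motor gene MYO5B rose by 0.28 and 0.31, RAB11FIP3 rose by 0.18, and RAB11FIP5 fell by 0.24. RAB11FIP3 lost its call with no filter on low values, with no intensity trend, without AIL replicate 1 or 2 and without DMSO replicate 1 or 3 (highest adjusted p 0.140). For RAB27, 0 of 4 tested genes rose and 3 fell, beside 28.2 and 25.9% of all tested genes, namely SYTL4, EXPH5 and the exchange factor MADD. For RAB6, 0 of 6 tested genes rose and 3 fell, beside 28.2 and 25.9% of all tested genes. These were the effectors ERC1 and BICD2 and the exchange factor KIAA1432 (now RIC1), which fell by 0.19, 0.14 and 0.22. RGP1, another exchange factor gene, did not pass (log2 difference 0.07). RABEPK, an effector of RAB9, rose to 63.3, 61.9 and 62.7 CPM under AIL, against 54.4, 56.7 and 55.3 CPM under DMSO. GCC2, the other gene for RAB9, did not pass (log2 difference -0.05). HPS4, of the exchange factor for RAB32, rose by 0.33, while HPS1, the other gene for RAB32, did not pass (log2 difference 0.10). Of the exchange factors for RAB35, DENND1A rose by 0.37 and DENND1B fell by 0.23. Copies and overlapping transcripts of these partner genes were not examined.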

How the data were processed

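RNA of 6 Saos-2 cultures was sequenced after an Illumina TruSeq preparation, per the labels' protocols. The authors deposited 1 table of TMM-normalized CPM per gene symbol, per the file name and the values. RSEM and edgeR 3.8.5 are named, with no role, per the submitters' processing notes. Aligner, build, gene models and strand handling were not given in the sources used here. Groups and replicate numbers came from the sample titles.

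Low values were multiples of 1 read, but printing to 2 decimals left 51.1 to 82.1% of the low values within 0.1 reads of a whole number and 99.95 to 99.98% within 0.2 reads. The tolerance set was 0.1 reads for 95% of values, so no count test was run. The log2(CPM + 1) values of the 11069 genes whose mean reached 1 CPM were fitted by limma 3.58.1 (R 4.3.3), with an intensity trend and no covariate, as a two-sided test with Benjamini-Hochberg adjustment. The log2(CPM + 1) scale understates changes of low genes, and TMM scaling hides a shift shared by most genes.

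Same-numbered samples deviated together (correlations 0.159, 0.133 and 0.129, over 0.1 in each), which the labels do not explain, so the comparison was repeated with that number as a block. The RAB genes and all lists were chosen with earlier results of these data known. Values were given for RAB genes called at an absolute log2 difference of at least 0.25, for RAB1A, RAB5A, RAB7A, RAB11A and RAB27A, and for up to 3 called genes per role of the regulators; further RAB genes and partners were named after their values were seen. Transcript lengths and 50-base words came from GENCODE 29. Promoters came from RefSeq. Some marker and regulator genes are not reported here. Python 3.11.15 was used for ratios and permutation tests.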

Additional observations from a re-analysis of the deposited data

How the results depend on the processing

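The 14 alternatives were pseudocounts of 0.1 and 5, no filter on low values, a minimum mean of 5 CPM, the replicate number as a block, median-of-ratios scaling, quantile normalization, no intensity trend and the omission of each of the 6 libraries. Tests on recovered reads were not run, because the tolerance set for whole reads, 0.1 reads, was not met; a tolerance of 0.2 reads would have been. No direction reversed for the 15 called RAB genes or for RAB5A, RAB7A, RAB11A, RAB11B, RAB27A and RAB32; other RAB genes were not followed by direction. The count of RAB genes called was 7 to 10 higher and 6 to 8 lower with all libraries, and 6 to 9 higher and 5 to 7 lower with a library left out. RAB1A, RAB1B, RAB3B, RAB5B, RAB6A, RAB8A, RAB9A, RAB14, RAB15, RAB22A and RAB30 kept their calls in all 14. With the replicate number as a block, RAB11A (log2 difference -0.08, adjusted p = 0.0157) and RAB32 (0.10, adjusted p = 0.0301) were added, and 17 of the 44 were called, including all 15 called without it, so the block changed no other RAB call. The regulators counted 32 to 40 higher and 39 to 46 lower with all libraries, and 29 to 43 higher and 36 to 41 lower with a library left out. The genes of prenylation, escort and GDP dissociation counted 3 higher, against 5, with no filter and without AIL replicate 1, DMSO replicate 2 or DMSO replicate 3. Scaling moved the median of all genes by at most 0.02 (log2) in size. With 3 libraries a group, the size of a log2 difference that passed depended on the level of the gene. RAB18, with a mean of 95.0 CPM, passed at 0.07. RAB27A, with a mean of 13.2 CPM, did not pass at -0.14, nor did RAB4B, with 2.44 CPM, at 0.11.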
